A study of Mus musculus with 15 samples.

Results

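Enteric neurons and glia form the nervous system of the gut wall. The report follows 29 genes that mark these cells in mouse intestine and in organoids grown from it, among the 45905 genes of the deposited reads-per-gene tables. The genes were picked by symbol, and all 29 were found in both tables. They comprise 21 genes of neurons, 6 of glia and 2 of interstitial cells of Cajal. The neuronal genes are 12 found in most neurons (Elavl3, Elavl4, Uchl1, Tubb3, Snap25, Syt1, Stmn2, Stmn3, Prph, Nefl, Nefm and Gap43), here called pan-neuronal, 3 for regulators and a receptor (Phox2a, Hand2 and Ret), and 6 tied to transmitters (Vip, Nos1, Ass1, Chat, Slc18a3 and Slc5a7).

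Enteric neurons and glia descend from neural crest cells that enter the gut in the embryo and spread along it under guidance of the receptor Ret and its ligand GDNF. Their cell bodies sit in ganglia of the myenteric plexus, between the muscle layers, and of the submucosal plexus, and their fibres reach the mucosa. Excitatory motor neurons use acetylcholine, inhibitory motor neurons use nitric oxide and vasoactive intestinal peptide, and interstitial cells of Cajal pace the muscle and relay these signals. The epithelium, in which the study removed plakoglobin, contains neither ganglia nor glia.

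The study measured poly(A) RNA in 15 mouse libraries, 6 of gut tissue and 9 of organoids, in 5 groups of 3. The gut libraries are described as ctr or PG_KO. Their titles conflict with this: those described as ctr are titled with an inducible Cre under the villin promoter (iVilCre ERT2) and floxed Jup, and those described as PG_KO with DSS colitis and floxed Jup, without Cre. Every gut and organoid group carries the floxed Jup gene by its title. Dextran sodium sulfate (DSS) injures the colon epithelium, and which gut animals received it, which stretch of gut was taken, their age and their sex are not settled by the labels. The organoids are labelled DMSO and nativ (floxed Jup, 1 shared code) and Tamoxifen (floxed Jup with iVilCre ERT2, 1 other code), so code, Cre and treatment change together. Villin drives expression in intestinal epithelium, so this Cre is not directed at neurons or glia.

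Of the 29 genes, 21 have a promoter window in RefSeq (GRCm38.p6), and 3 are shown: Vip and Nos1, the genes of both inhibitory transmitters, whose ratio to each other is described further on, and Foxd3, the neural crest gene with the largest fitted difference in gut. Each sequence is the 250 bases before the transcript start that its window uses, 5′ to 3′ on the gene's strand. For Vip that start lies inside the gene, which is annotated from 5639193 on chromosome 10, so the end of its window overlaps the gene. Capitals mark TGACGTCA, the cyclic AMP response element, or its variant TGACGTCT.
Vip, chr10:5638968-5639217, plus strand: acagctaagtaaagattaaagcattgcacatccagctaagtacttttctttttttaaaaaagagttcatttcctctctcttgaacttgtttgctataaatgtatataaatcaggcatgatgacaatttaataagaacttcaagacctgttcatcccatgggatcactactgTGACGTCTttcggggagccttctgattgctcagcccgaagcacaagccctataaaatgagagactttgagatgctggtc
Nos1, chr5:117866589-117866838, plus strand: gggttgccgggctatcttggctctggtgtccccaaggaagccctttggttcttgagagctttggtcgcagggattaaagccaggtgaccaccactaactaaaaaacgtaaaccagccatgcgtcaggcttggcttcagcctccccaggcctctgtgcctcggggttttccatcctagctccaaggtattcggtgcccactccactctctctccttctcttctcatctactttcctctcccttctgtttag
Foxd3, chr4:99656049-99656298, plus strand: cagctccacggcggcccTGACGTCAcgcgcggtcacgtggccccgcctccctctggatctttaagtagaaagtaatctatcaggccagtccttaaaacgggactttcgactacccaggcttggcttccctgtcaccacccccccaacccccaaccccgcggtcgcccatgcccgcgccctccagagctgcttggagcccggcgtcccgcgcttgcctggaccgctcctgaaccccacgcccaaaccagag
On both strands of all 32851 windows, TGACGTCA occurs in 1.55% and among these genes in Foxd3, where it begins 233 bases before the start. TGACGTCT occurs in 0.451% of windows and among these genes in Vip, where it begins 79 bases before the start that its window uses. Neither motif is in the Nos1 window. The repressor element RE1, which keeps neuronal genes silent outside neurons, was searched as its left part TTCAGCACC (0.301% of windows) and by its right part (0.0974%), and neither was in any window of the 21 genes. ACAAAG, a core of SOX sites, occurs in 16.5% of windows, including those of Stmn3 and Syt1. TAATTA, a homeodomain core, occurs in 4.84%, including those of Elavl4 and Hand2. These matches describe letters in the windows and are not evidence of binding.

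Totals ran from 23194154 to 29257456 assigned reads per gut library and from 25184868 to 30744342 per organoid library, so that 3 reads correspond to 0.0976 to 0.129 CPM (the library's reads scaled to the usual fixed total). Jup, the gene removed, stood at 302, 375 and 495 CPM in ctr replicates 1 to 3 and at 75.2, 82.8 and 80.3 CPM in PG_KO, which goes with the descriptions and not the titles. Its log2 change was -2.29 (SE 0.23, edgeR adjusted p = 0.163, DESeq2 adjusted p = 2.42e-14). Epithelial genes were abundant in every gut library, at 9779 to 19019 CPM summed over 10 markers. The labels do not say whether replicates came from separate animals, although each gut library has its own code, so p-values measure the spread between these samples. In bulk tissue, fewer cells of a type and less RNA per cell cannot be told apart.

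In gut, most members varied widely between libraries, chiefly between those of ctr. The 12 pan-neuronal genes summed to 253 ± 182 CPM in ctr and 142 ± 38.8 CPM in PG_KO (SD, n = 3). With at least 3 reads in every gut library, 28 of the 29 members were measurable, all but Erbb4. Over both groups, the highest of the 6 libraries stood 2.00 to 11.3 times above the lowest, with a median of 5.34 times. Over all 18416 genes with as many reads the median was 2.01 times. Ctr replicate 1 was the highest library for 26 of the 28, against 36.4% of all genes, and ctr replicate 3 the lowest for 14 of the 28, against 15.4%. Ctr replicate 2 came second for 18 of them. The groups overlapped for 27 of 28 genes, and the other, Kit, is described further on.

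**Figure D1:**
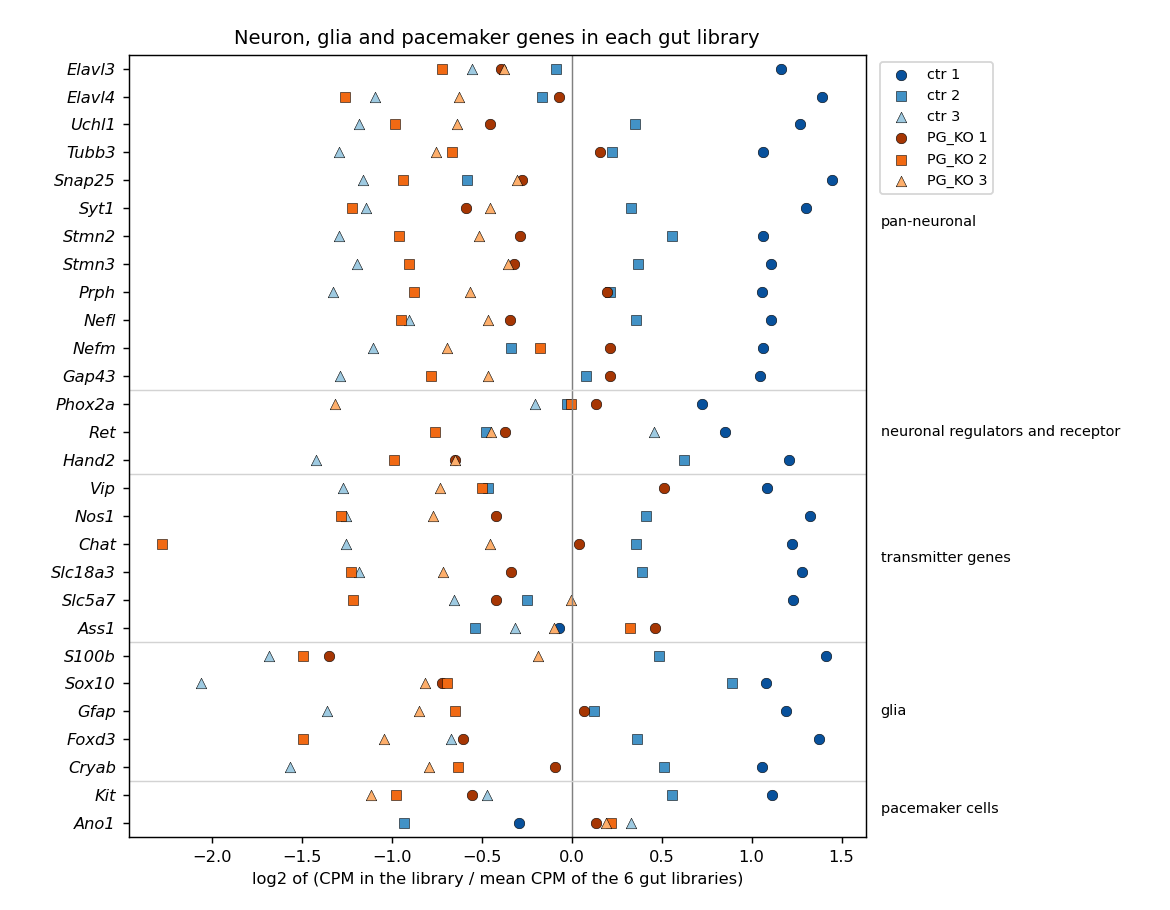
Level of each member in each gut library, on the x axis as log2 of the CPM divided by the mean CPM of the 6 libraries, with genes on the y axis by role and 1 symbol per library. Ctr replicate 1 is at the right for nearly all neuronal and glial genes and ctr replicate 3 near the left, with Ass1 and Ano1 apart.

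The comparison of PG_KO with ctr asked whether gut with low Jup differs in these genes. None of the 28 tested members passed an edgeR adjusted p of 0.05, as was so for 0% of the 18043 genes tested. At an unadjusted p under 0.05 there were 4 members (Kit, Ass1, Ret and Foxd3) and 2705 of all genes. DESeq2 called 458 genes, or 2.54%, and 0 members, and limma-voom called 0 of both. The fitted log2 change was negative for 26 of 28 members, with a median of -0.85, while all genes tested had a median of -0.03. Of the 28, Kit was the only one whose groups did not overlap, lower in PG_KO, as were 8.67% of all genes, while 9.97% of all genes and 0 members were higher without overlap. These figures rested on single ctr libraries. Without ctr replicate 1 the median was -0.29, with 20 negative. Without ctr replicate 3 edgeR called 5 members, all lower in PG_KO, namely Stmn2 (-1.31), Uchl1 (-1.47), Kit (-1.64), Hand2 (-1.62) and Sox10 (-1.66, all log2), where 7.91% of all genes were called and 5.91% of all genes were called lower.

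Levels per length of exon, in RPKM (reads per kilobase of exon, scaled as CPM) as mean ± SD over the 6 gut libraries, describe the members' levels. The highest were Ass1 at 73.9 ± 19.5 RPKM and Vip at 62.0 ± 40.3, followed by Uchl1 at 25.4 ± 19.0, Prph at 17.1 ± 10.5 and Tubb3 at 16.7 ± 10.2. Vip was first in ctr, at 67.4 ± 56.4 RPKM (SD, n = 3) against 60.1 ± 9.76 for Ass1. Ass1 was first in PG_KO, at 87.6 ± 16.9 RPKM against 56.5 ± 27.9 for Vip. Uchl1, Prph and Tubb3 differed by less than their SDs. At the lower end were Elavl3 at 0.862 ± 0.533 RPKM, Chat at 0.683 ± 0.521 and Foxd3 at 0.565 ± 0.476. Erbb4, a receptor for neuregulins, had 3 reads in all 6 libraries together. It is at or under the floor in both groups, so no fold is given. The glial genes Gfap and Sox10 stood at 4.79 ± 3.29 and 2.53 ± 1.97 RPKM.

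Among pan-neuronal genes, Prph encodes peripherin, an intermediate filament of peripheral neurons (chromosome 15 from 99053579 to 99058978, plus strand). It was read at 83.2, 46.3 and 15.9 CPM in ctr replicates 1 to 3 and at 45.9, 21.8 and 27.1 CPM in PG_KO replicates 1 to 3. The PG_KO libraries fall inside the ctr range, and the log2 change -0.56 (SE 0.57, edgeR adjusted p = 0.600) is about as large as its SE. Elavl4, an RNA-binding Hu protein of neurons (chromosome 4 from 110203737 to 110351939, minus strand), was at 21.9, 7.42 and 3.90 CPM in ctr and 7.93, 3.48 and 5.40 CPM in PG_KO. Here PG_KO replicate 2 lay below all ctr libraries and the others between them, with a fitted log2 difference of -0.92 (SE 0.65, edgeR adjusted p = 0.466).

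The genes of neurotransmitter release were also highest in ctr replicate 1. Snap25, a SNARE protein of synaptic vesicle fusion, was at 61.4, 15.004 and 10.1 CPM in ctr and 18.6, 11.7 and 18.2 CPM in PG_KO, with a fitted log2 difference of -0.78 (SE 0.65, edgeR adjusted p = 0.525). The Snap25 value in ctr replicate 1 was far above that of every other library. Enteroendocrine cells also hold the machinery of vesicle release. Their 10 markers summed to 2031, 584 and 493 CPM in ctr and 476, 591 and 431 CPM in PG_KO. The part of these cells in the gut values of release genes was not tested. Syt1, the calcium sensor of vesicle release, was at 37.8, 19.2 and 6.92 CPM in ctr and 10.2, 6.57 and 11.2 CPM in PG_KO (log2 change -1.15, SE 0.56, edgeR adjusted p = 0.358). Ctr replicates 1 and 2 were above all PG_KO libraries, and ctr replicate 3 was below PG_KO replicates 1 and 3.

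Uchl1, a ubiquitin hydrolase abundant in neurons and also known as PGP9.5, was at 70.1, 37.2 and 12.8 CPM in ctr and 21.2, 14.8 and 18.7 CPM in PG_KO, with a fitted log2 difference of -1.09 (SE 0.54, edgeR adjusted p = 0.360). Stmn2, a stathmin that binds tubulin in growing axons, was at 45.3, 31.9 and 8.83 CPM in ctr and 17.8, 11.1 and 15.1 CPM in PG_KO (log2 change -0.92, SE 0.54, edgeR adjusted p = 0.403). For both genes ctr replicates 1 and 2 stood above the PG_KO libraries and ctr replicate 3 below them. The related Stmn3 gave -0.83 (SE 0.54, edgeR adjusted p = 0.442), and the neuronal tubulin Tubb3 -0.60 (SE 0.56, edgeR adjusted p = 0.572) on the log2 scale. Nefl and Nefm, the light and medium neurofilament chains, lie 30449 bases apart on opposite strands of chromosome 14. They gave -0.93 (SE 0.49, edgeR adjusted p = 0.376) and -0.28 (SE 0.57, edgeR adjusted p = 0.803). Gap43, a protein of axonal growth cones, gave -0.47 (SE 0.58, edgeR adjusted p = 0.671), and the Hu protein Elavl3 -0.82 (SE 0.47, edgeR adjusted p = 0.399). Of the 12 pan-neuronal genes, all were highest in ctr replicate 1, and the lowest library was ctr replicate 3 for 8 and PG_KO replicate 2 for 4.

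The regulators split. Hand2, a basic helix-loop-helix factor needed for enteric neurons and also expressed in gut mesenchyme, was also highest in ctr replicates 1 and 2, at 69.9, 46.6 and 11.3 CPM in ctr and 19.3, 15.3 and 19.3 CPM in PG_KO (log2 change -1.20, SE 0.56, edgeR adjusted p = 0.351). Phox2a, a homeodomain factor of autonomic neurons, was low and flatter, at 6.05, 3.59 and 3.17 CPM in ctr and 4.02, 3.64 and 1.47 CPM in PG_KO (log2 change -0.46, SE 0.47, edgeR adjusted p = 0.608). The last bases of Phox2a, on the plus strand of chromosome 7 from 101818313 to 101822726, overlap Inppl1 on the other strand, which was read at 85.6 to 121 CPM. The strand setting is not given in the sources used here, so reads of the overlap cannot be told apart. Ret, the receptor tyrosine kinase of the GDNF family, was at 106, 42.2 and 80.6 CPM in ctr and 45.4, 34.7 and 42.9 CPM in PG_KO (log2 change -0.87, SE 0.32, edgeR adjusted p = 0.330). For Ret, ctr replicate 3 was the second highest library, unlike its place for the other neuronal genes, and ctr replicate 2 overlapped the PG_KO group.

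The inhibitory transmitter genes ordered the libraries differently. Vip, the precursor of vasoactive intestinal peptide, was at 205, 69.8 and 39.9 CPM in ctr and 138, 68.0 and 58.0 CPM in PG_KO, with a fitted log2 difference of -0.19 (SE 0.62, edgeR adjusted p = 0.883). PG_KO replicate 1 was the second highest library for Vip, and the other 2 PG_KO libraries were between ctr replicates 2 and 3. Nos1, the neuronal nitric oxide synthase, was at 139, 73.99 and 23.3 CPM in ctr and 41.5, 22.8 and 32.5 CPM in PG_KO, with a fitted log2 difference of -1.24 (SE 0.58, edgeR adjusted p = 0.353). For Nos1, ctr replicates 1 and 2 lay above all PG_KO libraries and ctr replicate 3 among them. Ass1, argininosuccinate synthase, helps recycle citrulline to arginine for nitric oxide synthesis and is also an enzyme of other tissues. It was at 115, 82.8 and 96.8 CPM in ctr and 166, 150.5 and 112 CPM in PG_KO, the only neuronal member with higher PG_KO values (log2 change 0.56, SE 0.21, edgeR adjusted p = 0.330). PG_KO replicate 3 at 112 CPM was just below ctr replicate 1.

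The cholinergic genes were low. Chat, choline acetyltransferase, was at 4.48, 2.46 and 0.803 CPM in ctr and 1.97, 0.396 and 1.40 CPM in PG_KO (log2 change -0.97, SE 0.77, edgeR adjusted p = 0.506). PG_KO replicate 2, with 10 reads, was the lowest. Slc18a3, the vesicular acetylcholine transporter, lies from 32462437 to 32464850 inside Chat (chromosome 14 from 32408203 to 32465909) on the same strand, an arrangement known as the cholinergic locus. It was at 13.5, 7.29 and 2.45 CPM in ctr and 4.40, 2.38 and 3.38 CPM in PG_KO (log2 change -1.14, SE 0.60, edgeR adjusted p = 0.374). Slc5a7, the choline transporter of nerve endings, was at 12.7, 4.57 and 3.44 CPM in ctr and 4.05, 2.34 and 5.40 CPM in PG_KO (log2 change -0.77, SE 0.56, edgeR adjusted p = 0.478). All 3 genes were highest in ctr replicate 1 and lowest in PG_KO replicate 2, and their groups overlapped.

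The glial genes, too, stood highest in ctr replicates 1 and 2. S100b, a calcium-binding protein of glia, was at 6.23, 3.28 and 0.727 CPM in ctr and 0.916, 0.831 and 2.05 CPM in PG_KO (log2 change -1.39, SE 0.76, edgeR adjusted p = 0.383). Sox10, the transcription factor of crest progenitors and glia, was at 14.5, 12.7 and 1.64 CPM in ctr and 4.16, 4.24 and 3.90 CPM in PG_KO (log2 change -1.20, SE 0.69, edgeR adjusted p = 0.402). The PG_KO libraries lay close together for Sox10, while ctr replicate 1 stood 8.82 times above ctr replicate 3. Gfap, the glial intermediate filament, was at 44.7, 21.3 and 7.61 CPM in ctr and 20.5, 12.5 and 10.9 CPM in PG_KO (log2 change -0.69, SE 0.59, edgeR adjusted p = 0.538). Foxd3, a forkhead factor of neural crest and enteric glia, was at 3.47, 1.72 and 0.841 CPM in ctr and 0.881, 0.475 and 0.649 CPM in PG_KO, the most negative fitted change of all members (log2 change -1.54, SE 0.58, edgeR adjusted p = 0.330). Only PG_KO replicate 1 overlapped the ctr range for Foxd3, and it had 159 reads in the 3 ctr and 56 in the 3 PG_KO libraries together.

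Cryab, a small heat shock protein of glia and muscle, was at 29.9, 20.5 and 4.86 CPM in ctr and 13.5, 9.26 and 8.31 CPM in PG_KO (log2 change -0.79, SE 0.59, edgeR adjusted p = 0.490). It overlaps Hspb2 and 2310030G06Rik on the opposite strand. Hspb2 was read at up to 3.62 CPM and 2310030G06Rik at up to 15.1 CPM. In ctr replicate 3, 2310030G06Rik stood at 12.1 CPM, above Cryab, and in ctr replicate 1 at 7.43 CPM, its lowest value. All 5 measurable glial genes were highest in ctr replicate 1, second in ctr replicate 2 for all 5, and lowest in ctr replicate 3 for 4 of them.

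Of the genes of interstitial cells of Cajal, Kit, the receptor for stem cell factor, was at 32.3, 22.03 and 10.8 CPM in ctr and 10.2, 7.60 and 6.90 CPM in PG_KO. All PG_KO libraries lay below all ctr libraries, though PG_KO replicate 1 and ctr replicate 3 differed little (log2 change -1.36, SE 0.40, edgeR adjusted p = 0.330, DESeq2 adjusted p = 0.0566). Mast cells also carry Kit, and 8 mast cell markers summed to 10.9, 7.54 and 17.4 CPM in ctr and 4.30, 11.1 and 10.9 CPM in PG_KO. Of these markers, 3 were tested. Mcpt1 (log2 change -0.74, SE 0.32, edgeR adjusted p = 0.333) and Mcpt2 (-0.82, SE 0.38, edgeR adjusted p = 0.350) were lower in PG_KO without overlap, as were 8.67% of all genes. For Cma1 the groups overlapped (-0.22, SE 0.74, edgeR adjusted p = 0.890). The part of mast cells in the Kit values was not tested. Ano1, the chloride channel that drives pacemaker currents and also a channel of epithelia, went another way, at 57.5, 36.9 and 88.3 CPM in ctr and 77.4, 82.0 and 80.1 CPM in PG_KO (log2 change 0.40, SE 0.31, edgeR adjusted p = 0.502). It was highest in ctr replicate 3, in which the neuronal genes were low.

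Smooth muscle, fibroblast and endothelial genes were, like the neuronal and glial members, highest in ctr replicates 1 and 2, but ordered the PG_KO libraries differently from the pan-neuronal genes. The 12 pan-neuronal members summed to 448, 226 and 85.8 CPM in ctr replicates 1 to 3 and to 184, 107 and 136 CPM in PG_KO replicates 1 to 3. Sox10, Gfap, S100b and Foxd3 together gave 68.9, 39.1 and 10.8 CPM and 26.5, 18.0 and 17.5 CPM. Smooth muscle, measured by 11 genes of contraction such as Acta2 and Myh11, summed to 5794, 4517 and 933 CPM and 899, 1241 and 1578 CPM. The listed Actn1 was left out of this sum, and its fitted change was positive (log2 change 0.37, SE 0.26, edgeR adjusted p = 0.464). With Actn1 the smooth muscle sum was 6093, 4680 and 1164 CPM in ctr and 1209, 1581 and 1808 CPM in PG_KO. In each of these sums ctr replicates 1 and 2 were the 2 highest libraries. Within PG_KO, replicate 1 was the highest library for the pan-neuronal sum and the lowest for smooth muscle. The pan-neuronal sum was 7.72, 4.9998 and 9.19 CPM per 100 CPM of the 11 smooth muscle genes in ctr and 20.4, 8.60 and 8.61 CPM in PG_KO. Fibroblast genes (7) summed to 3777, 2249.7 and 942 CPM in ctr and 1303, 1407 and 652 CPM in PG_KO, and endothelial genes (7) to 303, 187 and 65.9 CPM and 77.0, 134 and 43.9 CPM. The 10 epithelial genes ran the other way, at 9779, 12352 and 16456 CPM and 19019, 15018 and 18231 CPM. Macrophage genes (7) summed to 1629.5, 775 and 471 CPM in ctr and 745, 568 and 197 CPM in PG_KO, and mesothelial genes (5) to 106, 20.6 and 54.9 CPM and 114, 42.7 and 64.2 CPM. T and NK cell genes (6) summed to 21.9, 31.9 and 11.8 CPM in ctr and 3.84, 5.15 and 10.05 CPM in PG_KO, and B and plasma cell genes (6) to 582, 468 and 203 CPM and 78.1, 132 and 171 CPM. These last sums were lower in all PG_KO than in all ctr libraries. In gut, 0 markers of these 8 lists were under 3 reads in every library. Their part in the members' values was not tested beyond the fits that follow.

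**Figure D2:**
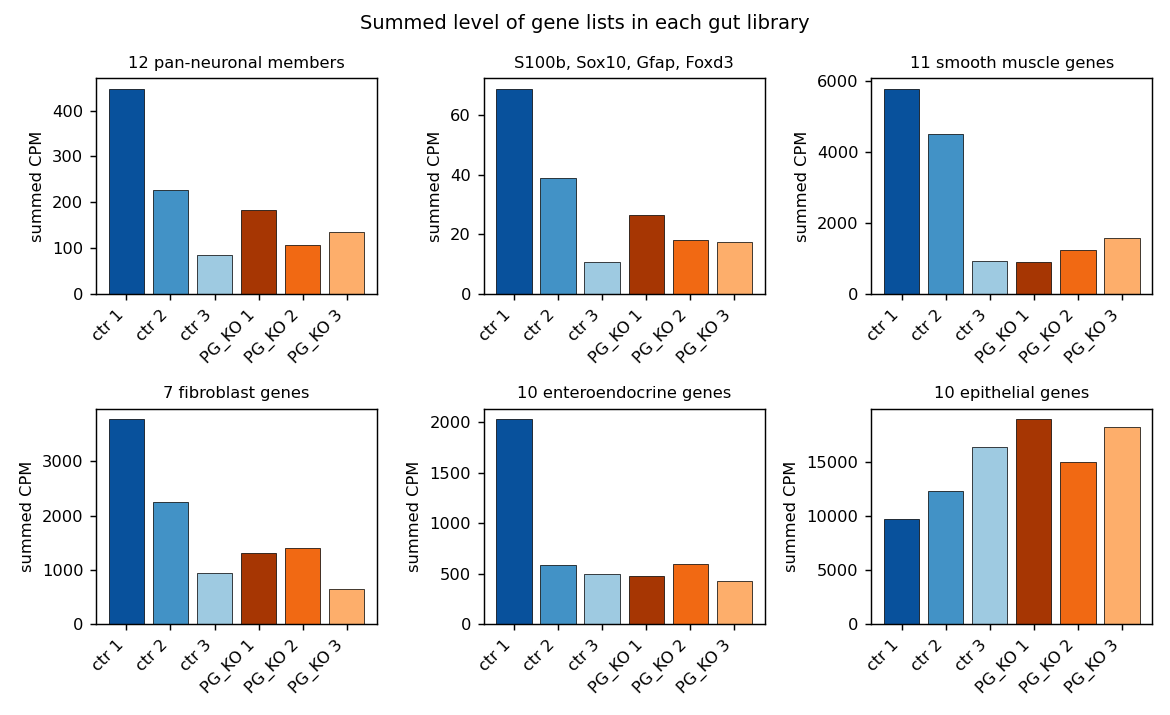
Summed CPM (y axis, from 0) of 6 gene lists in each of the 6 gut libraries (x axis, 1 bar per library). The smooth muscle sum leaves out Actn1. Pan-neuronal, glial, smooth muscle and fibroblast sums are highest in ctr replicate 1, second in ctr replicate 2 and low in ctr replicate 3, while the epithelial sum is lowest in ctr replicates 1 and 2. The enteroendocrine sum is highest in ctr replicate 1, far above every other library.

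The smooth muscle level of each library, as the mean log2 CPM of all 12 listed genes with Actn1, was then a covariate in the edgeR fit. With this covariate the fitted difference of most members turned sign. The median over the 28 was 0.19 and 6 were negative, against -0.85 and 26 without it, and no member was called. Uchl1 went from -1.09 to 0.11, Nos1 from -1.24 to 0.04, Sox10 from -1.20 to 0.68 and Vip from -0.19 to 0.76. Elavl3 and Slc5a7 stayed negative by a small margin. Ret (-0.87 and -0.94), Kit (-1.36 and -0.70), Foxd3 (-1.54 and -0.66) and Phox2a (-0.46 and -0.29) stayed negative too. With the epithelial level, taken likewise over the 10 epithelial genes, as covariate the median was 0.25 and 4 were negative. The covariate and the groups are partly confounded in 6 libraries, so these fits describe the shared variation and do not separate its sources.

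**Figure D3:**
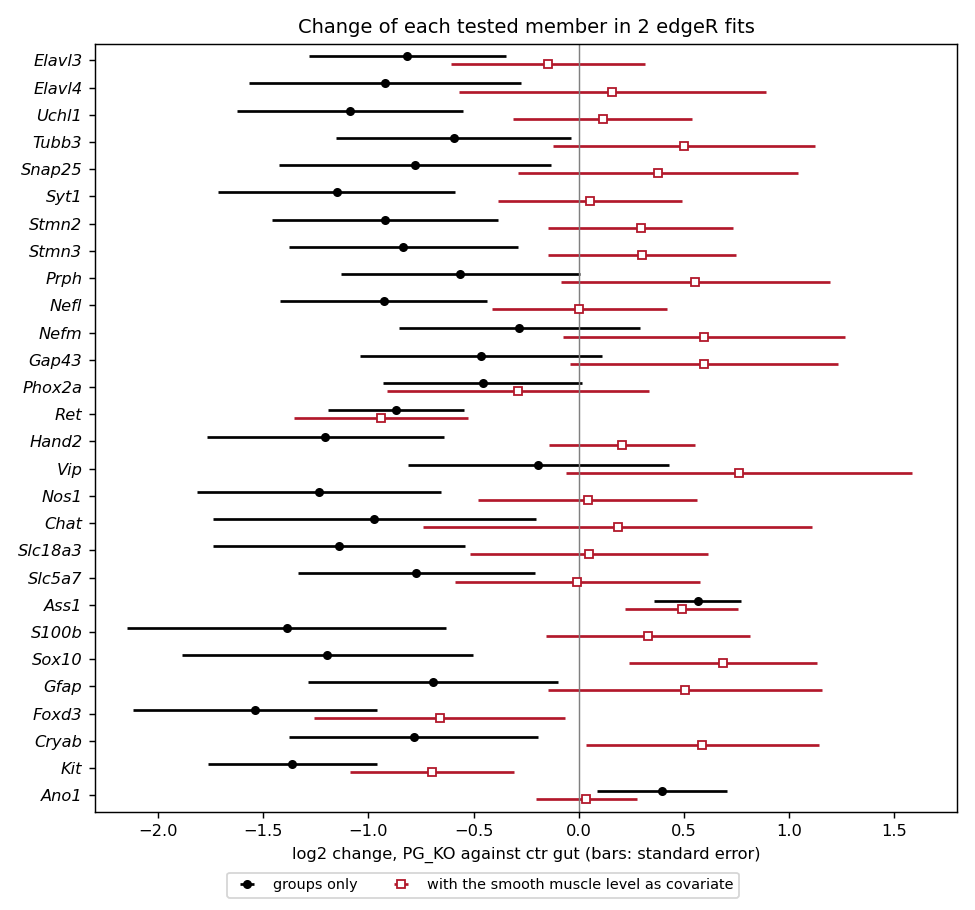
Fitted log2 change of each tested member between PG_KO and ctr gut (x axis, with standard errors), with genes on the y axis, from the fit on groups alone (filled circles) and the fit with the smooth muscle level as covariate (open squares). Most filled circles are left of 0 and most open squares right of it, and Ret, Kit and Foxd3 stay to the left in both.

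To compare members within a library, each was divided by the summed CPM of the 12 pan-neuronal genes, a description set up after the values were seen. The 12 genes of the sum are part of their own denominator, which holds their shares steady by construction. Ret varied more as a ratio than as a level, at 23.7, 18.7 and 93.98 CPM per 100 CPM in ctr and 24.7, 32.5 and 31.6 in PG_KO. The groups overlapped in glial per neuronal level. S100b, Sox10, Gfap and Foxd3 together gave 15.4, 17.3 and 12.6 per 100 CPM of pan-neuronal genes in ctr and 14.4, 16.9 and 12.9 in PG_KO. Peripherin took 18.6, 20.5 and 18.6% of the pan-neuronal sum in ctr and 25.0, 20.4 and 19.9% in PG_KO. The groups overlapped for 22 of 28 ratios.

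The ratio was lower in all PG_KO than in all ctr libraries for 5 members and higher for 1, beside 2.51% and 0.527% of all genes. The ratio's median coefficient of variation was 23.0% for members and 53.7% for 18416 genes, and some members are in the denominator, so these shares cannot be set against each other. Nos1 stood at 31.1, 32.8 and 27.2 CPM per 100 CPM of pan-neuronal genes in ctr and at 22.6, 21.4 and 24.0 in PG_KO. Slc18a3 stood at 3.02, 3.23 and 2.85 in ctr and 2.40, 2.23 and 2.49 in PG_KO. Foxd3 was at 0.776, 0.764 and 0.981 in ctr and 0.480, 0.445 and 0.478 in PG_KO. Kit was at 7.22, 9.75 and 12.6 in ctr and 5.55, 7.12 and 5.08 in PG_KO, and Uchl1 made up 15.7, 16.5 and 14.9% in ctr and 11.6, 13.8 and 13.8%. Gap43 was the gene with a higher share, at 4.06, 4.10 and 4.19% in ctr and 5.55, 4.78 and 4.68% in PG_KO. With 3 libraries against 3, an exact two-sided permutation test cannot go below p = 0.1, so no such ratio can pass a threshold of 0.05.

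The ratio of both inhibitory transmitter genes, chosen after its values were seen, also differed without overlap. There were 1.47, 0.944 and 1.71 CPM of Vip per CPM of Nos1 in ctr replicates 1 to 3 and 3.32, 2.98 and 1.78 in PG_KO. PG_KO replicate 3 was barely above ctr replicate 3, and the other 2 PG_KO libraries stood well above. Vip per 100 CPM of pan-neuronal genes was 45.7, 30.9 and 46.5 in ctr and 75.0, 63.8 and 42.7 in PG_KO, and these overlap.

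**Figure D4:**
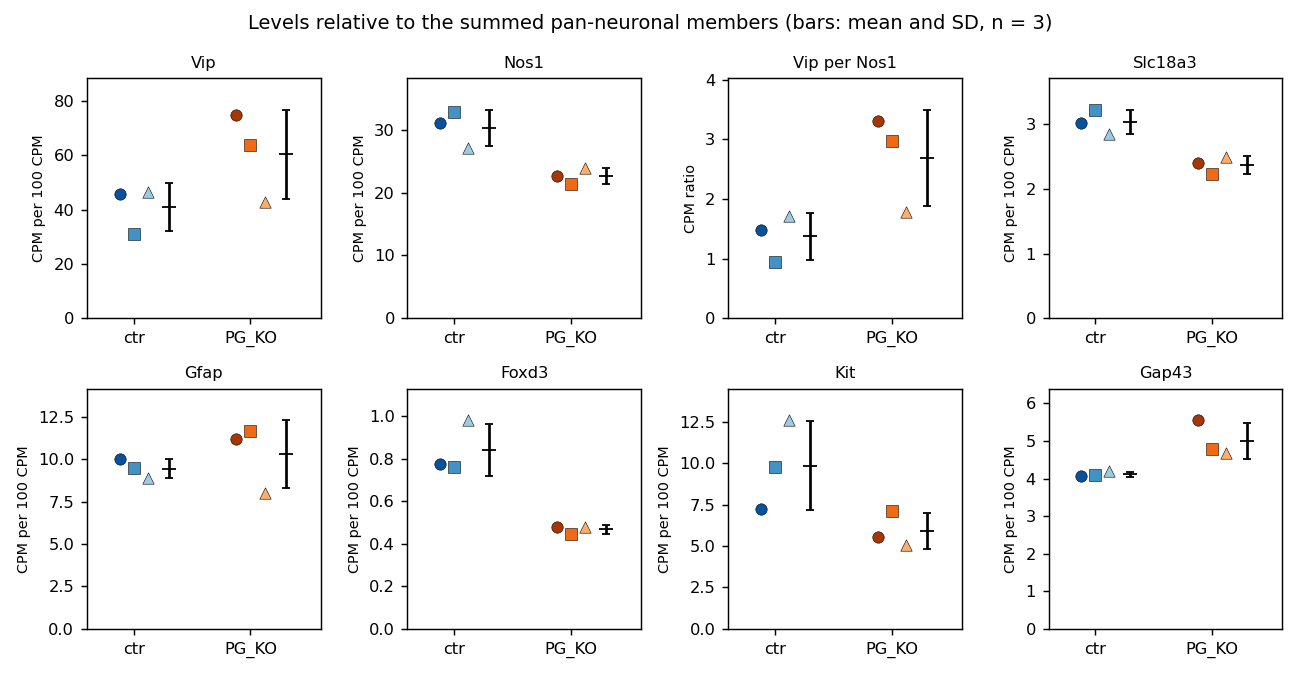
CPM of 7 genes per 100 CPM of the pan-neuronal sum, and the ratio of Vip to Nos1 (y axes, from 0), in ctr and PG_KO gut, with 1 symbol per library and the mean ± SD (n = 3) beside it. Nos1, Slc18a3, Foxd3 and Kit lie lower in all PG_KO libraries, Gap43 and Vip per Nos1 higher, and Vip and Gfap overlap.

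Further genes of the same cells gave mostly negative fitted changes and no edgeR call, while DESeq2 called Tac1 among them. Over all 18043 genes tested, 2705 had an unadjusted p under 0.05 and 9485 were negative. Of 40 further neuronal genes, 37 were tested, 0 called by edgeR in either direction (3 at an unadjusted p under 0.05) and 34 negative, with a median log2 change of -0.92. Penk, the enkephalin precursor of enteric motor neurons, was at 174, 85.8 and 28.99 CPM in ctr and 63.8, 43.9 and 49.6 CPM in PG_KO, in the order of the pan-neuronal genes. Tac1, the precursor of substance P, was not: it was at 93.0, 169.5 and 149 CPM in ctr and 39.0, 38.5 and 25.6 CPM in PG_KO, with all PG_KO libraries lower (log2 change -1.99, SE 0.30, edgeR adjusted p = 0.330, DESeq2 adjusted p = 7.15e-06). Tac1 and Ebf1 (log2 change -1.48, SE 0.47, edgeR adjusted p = 0.330) were the 2 of 37 lower in PG_KO without overlap, beside 8.67% of all genes. DESeq2 called 2.54% of all genes. Enterochromaffin cells of the epithelium also make Tac1. The 10 enteroendocrine markers summed to 2031, 584 and 493 CPM in ctr and 476, 591 and 431 CPM in PG_KO, and their part was not tested. L1cam, an adhesion molecule of axons, had its lowest values in ctr replicates 1 and 2, at 49.4, 49.1 and 77.4 CPM in ctr and 57.5, 81.9 and 81.7 CPM in PG_KO.

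Of 15 further glial genes, 11 were tested and 0 called (5 at an unadjusted p under 0.05), with 10 negative and a median of -1.11. Scn7a, a sodium channel of glia, was at 37.5, 16.8 and 5.93 CPM in ctr and 6.76, 6.81 and 8.37 CPM in PG_KO. Erbb3, the neuregulin receptor of crest-derived glia, is also epithelial and was highest in ctr replicate 3, at 149, 187 and 258 CPM in ctr and 209, 223 and 214 CPM in PG_KO. Of 15 genes of GDNF, Ret and endothelin signalling, 14 were tested, 0 called (2 at an unadjusted p under 0.05) and 14 negative, with a median of -1.14. Ednrb, the endothelin receptor of crest cells, was at 29.2, 16.0 and 8.61 CPM in ctr and 6.17, 10.1 and 4.72 CPM in PG_KO (log2 change -1.34, SE 0.47, edgeR adjusted p = 0.330), and the ligand neurturin, Nrtn, gave -1.39 (SE 0.50, edgeR adjusted p = 0.330). Of 12 further genes of pacemaker and related interstitial cells, 11 were tested and 0 called (2 at an unadjusted p under 0.05). Of the 11, 10 were negative, with a median of -1.23. The lists share genes, which are counted in each: Ednrb and Gfra3 are in the glial and signalling lists. Etv1 is in the neuronal and pacemaker lists, and Pdgfra in the pacemaker and fibroblast lists. Pdgfra, which marks fibroblasts and interstitial cells of another kind, was at 186, 102 and 52.1 CPM in ctr and 36.8, 55.0 and 27.8 CPM in PG_KO (log2 change -1.48, SE 0.45, edgeR adjusted p = 0.330).

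Organoids are grown from epithelium without nerve or muscle, and serve as background. Of the 29 members, 21 stayed at or under 1 CPM in all 9 organoid libraries. The 12 pan-neuronal genes summed to 1.63 to 2.03 CPM in DMSO, 1.05 to 2.88 in nativ and 4.39 to 5.69 in Tamoxifen organoids, where gut held 85.8 CPM or more. The tables of gut and organoids are separate, so these levels are set side by side without a test. Gap43 had 0 reads in all 9 organoid libraries, which allows up to 0.0976 to 0.119 CPM per library. Vip, Hand2, Gfap, Sox10 and Chat stayed near 0. The 8 members above 1 CPM in some organoid library were Ret, Snap25, Nefm, Ass1, S100b, Cryab, Kit and Ano1.

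**Figure D5:**
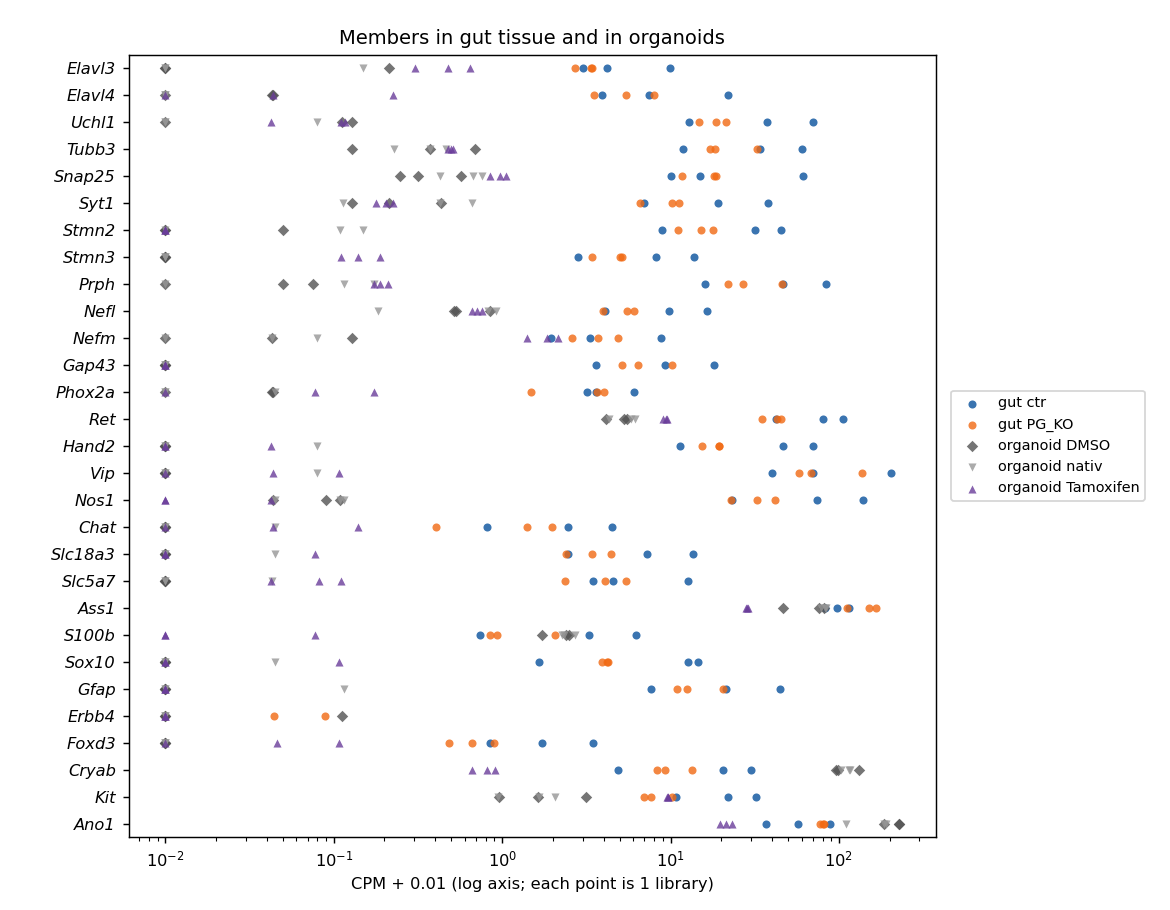
CPM plus 0.01 (x axis, logarithmic) of each of the 29 members (y axis) in each gut and organoid library, by group. Most genes are separated between gut, at the right, and organoids, at the left, whereas Ass1, Ano1, Kit, Cryab, S100b and Nefm reach gut levels or more in some organoids.

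Several members were also read in the epithelial organoids. Epithelial markers themselves differed between organoid groups. Of the 10 epithelial genes, 8 were called higher in Tamoxifen than in DMSO organoids and 1 lower, beside 33.9% and 32.4% of all genes. Among them, Cdx1 differed by 12.6, Krt20 by 8.23 and Cdx2 by 4.27 (log2), named after their values were seen, and Krt18 by -1.63. How the organoid levels relate to those of gut epithelium was not tested. Ass1 stood at 68.1 ± 18.8 CPM (SD, n = 3) in DMSO, 81.6 ± 2.63 CPM in nativ and 28.6 ± 0.495 CPM in Tamoxifen organoids. Ano1 stood at 214 ± 24.0 CPM, 163 ± 45.2 CPM and 21.4 ± 1.62 CPM, above its gut level in the first and second of these groups. Ret reached 4.96 ± 0.728 CPM, 5.41 ± 0.978 CPM and 9.31 ± 0.282 CPM, and Kit 1.91 ± 1.13 CPM, 1.54 ± 0.565 CPM and 9.59 ± 0.0959 CPM. In gut, Ass1 and Ano1 were the 2 measurable members not highest in ctr replicate 1. Of the members listed as glial, Cryab and S100b were read in organoids without the others. Cryab was at 108 ± 19.5 CPM in DMSO, 111 ± 7.73 CPM in nativ and 0.782 ± 0.123 CPM in Tamoxifen organoids, and S100b at 2.19 ± 0.420 CPM, 2.42 ± 0.228 CPM and 0.0223 ± 0.0386 CPM. In those libraries Sox10, Gfap and Foxd3 stayed at or below 0.104 CPM.

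Tamoxifen organoids, with low Jup, were compared with DMSO organoids in a fit of all 9 libraries. The Tamoxifen libraries all carry 1 code, and the DMSO and nativ libraries 1 other. The p-values here therefore measure the spread between libraries of the same code. Of 11 members that passed the low-count filter, 8 were called, 4 in each direction, where 66.3% of 16449 genes were called, 33.9% higher and 32.4% lower, so this share is near the background. Ret rose in Tamoxifen organoids by 0.84 (SE 0.15, edgeR adjusted p = 5.99e-04) and Kit by 2.26 (SE 0.34, edgeR adjusted p = 1.74e-04) on the log2 scale. Snap25 rose by 1.28 (SE 0.34, edgeR adjusted p = 0.00637), from 0.367 ± 0.168 CPM to 0.948 ± 0.104 CPM, and Nefm by 5.06 (SE 0.58, edgeR adjusted p = 2.22e-05), from 0.0506 ± 0.0615 CPM to 1.79 ± 0.376 CPM. Both genes were low, and Nefm, with 4 reads in DMSO and 3 in nativ, passed the low-count filter only through the Tamoxifen group. Cryab changed by -7.18 (SE 0.20, edgeR adjusted p = 5.07e-10), Ano1 by -3.38 (SE 0.16, edgeR adjusted p = 1.88e-08) and Ass1 by -1.33 (SE 0.19, edgeR adjusted p = 1.07e-04), all lower in Tamoxifen. S100b also fell, with 2 reads in the Tamoxifen group against 189 in DMSO, a ratio of 98.2 in favour of DMSO (95% exact interval 26.8 to 817 for counting error only, edgeR adjusted p = 1.08e-06). S100b passed the filter only through the DMSO and nativ groups, so the filter shaped the calls of Nefm and S100b. Tubb3, Syt1 and Nefl were tested and not called.

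Beside this, the 10 enteroendocrine markers summed to 0.164 to 0.397 CPM in DMSO and 202 to 211 CPM in Tamoxifen organoids. Enteroendocrine cells share the machinery of vesicle release with neurons, and their part in the values of Snap25 and Nefm was not tested. Of the 40 further neuronal genes, 11 passed the filter, with 9 called higher and 2 called lower. The filter shapes this count, since a gene near 0 in DMSO and nativ could pass only by being high in Tamoxifen. Tac1 had 736 reads in the Tamoxifen and 0 in the DMSO group. The granin Scg2 had 235 and 1 reads, Scg3 63 and 0, and Calcb, a calcitonin gene-related peptide, 200 and 1. Scg3 and Calcb are named for these counts after their values were seen. Map1b, a microtubule protein of axons, was lower in Tamoxifen organoids, at 0.798 ± 0.163 CPM against 25.5 ± 1.05 CPM. The organoid groups differ in code, Cre and treatment together, which cannot be told apart.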

How the data were processed

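Values came from 2 tables of expected counts, 1 of gut and 1 of organoids, that is reads per gene that the authors deposited unscaled. The combined exon length is another deposited value. The submitters' processing notes name GRCm38.p6, STAR (2.7.2b), featureCounts (1.6.4), cutadapt (2.5), bcl2fastq (2.20.0.422) and DESeq2. Strand setting and filters are not given in the sources used here. From 10.4% to 13.7% of a library's values were not whole (any fraction counted), and 6 members had such values in gut. Values were rounded for the fits. Groups follow the descriptions, and the column spelled gtr was taken as ctr replicate 3. Members and lists were chosen with earlier results of these data known, and the ratios and role groups after their values were seen. Testing used edgeR 4.0.16 (quasi-likelihood, TMM, filterByExpr) in R 4.3.3 on 6 gut or 9 organoid libraries. P-values were adjusted by Benjamini-Hochberg over every tested gene, with calls under 0.05. The method was also run on counts simulated for each gene independently. These lack the variation that genes share between gut libraries, so that run does not cover it. The SE was taken from the log2 change and its F statistic. Alternatives were DESeq2 1.42.0, limma-voom (limma 3.58.1), RLE factors, library totals, other filters, a replicate block, left-out libraries, and smooth muscle or epithelium covariates. Named were Jup, all members and, of each other list in a set of 17 lists, up to 5 genes with the highest gut level and up to 3 with the smallest gut p. Figures used matplotlib 3.10.9.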

Additional observations from a re-analysis of the deposited data

How the results depend on the processing

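In gut, edgeR called 0 genes and 0 members. DESeq2 called 458 genes, and the fit without a low-count filter called 5, all lower in PG_KO. DESeq2, limma-voom, RLE factors, library totals, both other filters and the replicate block called 0 members and turned no member's sign. The replicate block called 0 genes in gut and 10823 in organoids, with the same 8 members as before. The labels give no pairing of samples by replicate number. Correlations of deviations between libraries of the same number ran from -0.18 to 0.29 in gut and from -0.12 to -0.0065 in organoids. Libraries of different numbers were not compared in this way, so these values cannot settle whether samples are paired. Leaving out 1 library gave 0 to 1478 called genes and 0 to 5 called members in gut, the upper ends without ctr replicate 3, and 9753 to 10929 genes and 8 to 9 members in organoids. Fitted log2 changes with a turned sign had these leave-one-out ranges in gut: Snap25 -1.14 to 0.36, Prph -0.97 to 0.033, Nefm -0.60 to 0.50, Gap43 -0.83 to 0.18, Vip -0.71 to 0.69, Gfap -1.08 to 0.023. In organoids they were Tubb3 -0.13 to 0.87, Syt1 -0.74 to 0.14, Nefl -0.027 to 0.40, none of them called. Leaving out both ctr replicate 1 and PG_KO replicate 3 gave the positive values Elavl4 0.037, Phox2a 0.18, Tubb3 0.17, Snap25 0.28, Prph 0.14, Nefm 0.71, Gap43 0.27, Vip 0.93, Gfap 0.21. With the smooth muscle covariate the values that turned positive were Elavl4 0.16, Uchl1 0.11, Tubb3 0.50, Snap25 0.38, Syt1 0.053, Stmn2 0.29, Stmn3 0.30, Prph 0.55, Nefl 0.0027, Nefm 0.59, Gap43 0.60, Vip 0.76, Nos1 0.042, Chat 0.18, Slc18a3 0.048, Hand2 0.21, S100b 0.33, Sox10 0.68, Gfap 0.50, Cryab 0.59. With the epithelium covariate they were Elavl3 0.028, Elavl4 0.38, Uchl1 0.22, Tubb3 0.59, Snap25 0.71, Syt1 0.16, Stmn2 0.27, Stmn3 0.35, Prph 0.61, Nefl 0.059, Nefm 0.86, Gap43 0.69, Vip 1.02, Nos1 0.12, Chat 0.11, Slc18a3 0.12, Slc5a7 0.15, Hand2 0.23, S100b 0.40, Sox10 0.55, Gfap 0.66, Cryab 0.59. No member was called in these 3 fits, and the cause of the turned signs was not tested. In organoids the 8 called members were called in every alternative that tested them, and without a filter Elavl3 and Stmn3 were called too. Depth limits Erbb4, Foxd3 and Chat in gut and most members in organoids, where few reads were counted.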
